A study of Mus musculus with 8 samples.

Results

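The genes described here are 10 genes of the transforming growth factor beta (TGF-beta) superfamily: the ligand genes Tgfb1, Tgfb2, Tgfb3 and Bmp4, the activin subunit genes Inhba and Inhbb, the receptor genes Tgfbr1, Tgfbr2 and Tgfbr3, and the antagonist gene Fst. They were chosen by name, and each was read from the probe set with the highest mean among those annotated with that gene symbol alone. All 10 were found, each with 1 such probe set, among 19938 genes tested. RNA was measured in mammary glands of 8 virgin, untreated female mice, 5 weeks old, of the strain C57BL/6 X FVB, to ask how loss of the transcription factor Sox9 alters the gland at puberty. Both groups carried MMTV-Cre, a recombinase under the mouse mammary tumour virus promoter that is active in mammary epithelium. The 4 flox/flox mice had both Sox9 copies floxed. The 4 flox/+ controls had a floxed copy beside a wild-type copy, so they too could lose a copy in the same cells. The tissue was the piece of the fourth gland near its lymph nodes, 1 gland and 1 Affymetrix Gene 1.0 ST array per mouse. The precision is limited by there being 4 arrays a group.

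TGF-beta ligands are secreted bound to their own propeptide in a latent form. Once freed they join a type II and a type I receptor, which phosphorylates SMAD proteins that enter the nucleus. Activins are dimers of inhibin beta subunits and use related receptors, and bone morphogenetic proteins (BMPs) signal through another set of SMADs. In the mammary gland TGF-beta is known as a brake on ductal growth, and activin and BMP signals take part in ductal and nipple development.

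Sox9 itself was lower in the flox/flox glands, at 323 ± 35.7 (SD, n = 4) against 410 ± 35.1 in controls, with no overlap (2-sided exact permutation p = 0.0286, the smallest that 4 against 4 arrays allow). Its limma adjusted p was 0.256, and the deleted stretch of the gene is not named in the labels. Over all genes 8 passed an adjusted p of 0.05 (0.0401%), and the median log2 difference was -0.01. The deposited array medians lay between 159 and 178. The files give no detection calls, so tissue identity was read from bright markers. Luminal (Krt8, Krt18, Epcam) and basal epithelium (Krt5, Krt14), fat (Adipoq), fibroblast (Dcn) and endothelium (Pecam1) markers all lay above the normalized array median of 167 in every gland, the dimmest being Krt14 at 555 to 820. Control replicate 2 stood apart in B cell genes, with a mean 2.36 log2 units above the average of the glands for 5 measured markers, against -0.52 to -0.12 in the other 7. In whole tissue fewer cells of a type and less RNA per cell cannot be told apart.

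None of the 10 genes passed the test between genotypes. The count was 0 with limma, against 0.0401% of all genes (0.0301% higher and 0.0100% lower in flox/flox). Inhba alone had an unadjusted p under 0.05 and was on the higher side, against 10.3% of all genes (4.81% higher and 5.46% lower). Flox/flox and control values overlapped for every one of the 10, where 5.90% of all genes had no overlap. The mean was higher in flox/flox glands for 9 genes and lower for 1, Tgfb3, while 47.4% of all genes had a positive and 52.6% a negative difference (55.1% positive without quantile normalization). The log2 differences, flox/flox minus flox/+, ran from -0.09 to 0.34 with a median of 0.07. Adjusted p ran from 0.315 to 0.971, and the exact permutation p of each gene from 0.0571 to 0.886. Folds below are these differences taken back from log2 with an offset of 16 still in, which understates changes of dim genes.

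**Figure D1:**
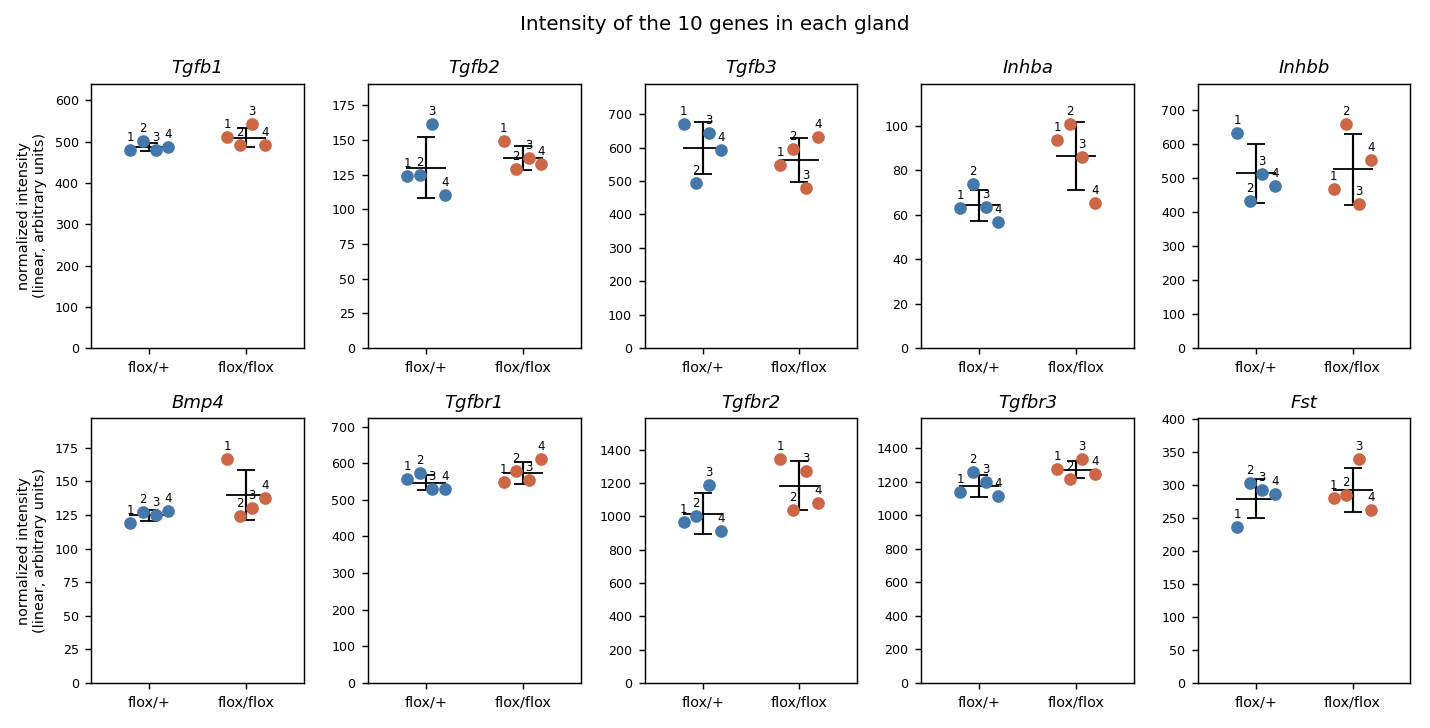
Normalized intensity (linear scale, axis from 0) of the 10 genes in each gland, with flox/+ in blue and flox/flox in orange. Numbers are replicates, horizontal bars are means and vertical bars SD (n = 4). The groups overlap in every panel; for Inhba, flox/flox replicate 4 at 65.4 lies inside the control range of 56.7 to 73.7.

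Among the ligands, Tgfb1 encodes the isoform made by most cell types. It read 480, 502, 480 and 487 in flox/+ replicates 1 to 4, and 512, 492, 543 and 492 in flox/flox replicates 1 to 4. The 4 controls spanned a narrow range, and flox/flox replicates 1 and 3 lay above it. The log2 difference was 0.06 ± 0.06 (SE; 1.04-fold, 95% interval 0.951 to 1.15; limma adjusted p = 0.777). Tgfb1 was also among the steadiest genes on the arrays: 3.25% of all genes had a smaller SD within genotypes. At this precision, and with quantile normalization, an increase beyond 1.15-fold lay outside the interval. The log2 difference was 0.10 both without that normalization and with median centring, so the bound moves with it. Without flox/flox replicate 3 the difference was 0.03.

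Tgfb2, an isoform with roles in heart and epithelial-mesenchymal development, read 124, 125, 162 and 110.2 in controls and 149, 129, 137 and 133 in flox/flox glands. The highest and the lowest value were both controls, replicates 3 and 4, so the flox/flox glands lay inside the control range. The means were 130.1 ± 21.99 and 137 ± 8.69 (SD, n = 4), with a log2 difference of 0.08 ± 0.10 (SE; limma adjusted p = 0.836). It was 0.01 without control replicate 4 and 0.17 without control replicate 3. Every Tgfb2 value lay below the array median of 167, and how far they stood above background was not measured.

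Tgfb3, the isoform best known in the gland for its rise when milk stasis starts involution, was the gene with a lower mean in flox/flox. Controls read 671, 493, 643 and 593, and flox/flox glands 547, 595, 478 and 632. The lowest glands were flox/flox replicate 3 and control replicate 2, and the highest was control replicate 1, so the ranges overlapped over most of their width. The difference was -0.09 ± 0.11 (SE; 0.941-fold, 95% interval 0.795 to 1.11; limma adjusted p = 0.831). It was -0.01 without flox/flox replicate 3 and -0.18 without control replicate 2.

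Inhba encodes the beta A subunit, whose homodimer is activin A. It had the largest difference of the 10. Controls read 62.9, 73.7, 63.6 and 56.7, and flox/flox glands 93.6, 101, 86.2 and 65.4. Flox/flox replicates 1 to 3 lay above every control, and replicate 4 below control replicate 2. The means were 64.2 ± 7.06 in flox/+ and 86.5 ± 15.3 in flox/flox (SD, n = 4). The log2 difference was 0.34 ± 0.11 (SE; 1.27-fold, 95% interval 1.07 to 1.51; limma adjusted p = 0.315). The exact permutation p was 0.0571. All 8 values lay below that array median of 167, and how far they stood above background was not measured. Of all genes 3.45% had an unadjusted p as small or smaller.

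Several marker lists also differed in mean between the genotypes. The proliferating cell list had all 7 measured markers lower in flox/flox, with summed intensities of 993 to 1315 against 1437 to 1730 in controls, and the mast cell and eosinophil list had 7 of 8 higher (2090 to 2636 against 1980 to 2120). The 5 measured brown adipocyte markers were also higher in mean (sums of 5251 to 10212 against 3510 to 7293). Sums overlapped between genotypes for this list and for the mast cell and eosinophil list. None of these markers was at 0. With the mean of a list as covariate the Inhba difference was 0.23 ± 0.28 (SE) for proliferating cells, 0.33 ± 0.25 for mast cells and eosinophils and 0.44 ± 0.15 for brown adipocytes. None had a limma adjusted p under 0.05 (0.965, 0.983 and 0.653). The log2 means of the proliferating cell list, and those of the mast cell and eosinophil list, do not overlap between genotypes. Those fits barely separate list from genotype, so they do not show what part cell makeup had in the Inhba difference. With the luminal list, which was balanced between genotypes, the Inhba difference was 0.31 ± 0.08 (adjusted p = 0.274).

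Inhbb encodes the beta B subunit of activin B, which in mice is needed for ductal elongation. It read 635, 434, 512 and 478 in controls and 467, 660, 425 and 554 in flox/flox glands. Its means were 515 ± 86.2 and 527 ± 104 (SD, n = 4). The difference in log2 units was 0.03 ± 0.14 (SE; interval at 95% -0.29 to 0.34; limma adjusted p = 0.971). Inhbb varied most within genotypes of the 10, with 93.8% of all genes steadier, and its interval reached from 0.818-fold to 1.27-fold. The sign turned in 4 of the 8 fits that left out a gland: without control replicate 2 (-0.0488) or 4 (-0.00305), and without flox/flox replicate 2 (-0.0856) or 4 (-0.00338). So the activin subunits had unlike patterns: over the 8 glands the r between Inhba and Inhbb was 0.02.

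Bmp4, a BMP made by the mammary mesenchyme that acts in early bud and nipple development, read 119, 127, 125 and 128 in controls. In flox/flox it read 167, 125, 130.1 and 138. The controls lay between 119 and 128, and flox/flox replicate 1 stood above all other glands. Those other glands lay below the array median of 167, and their distance from background was not measured. The log2 difference was 0.14 ± 0.09 (SE; 1.102-fold; limma adjusted p = 0.614), and without flox/flox replicate 1 it was 0.06. That gland also had the highest means of the brown adipocyte list (0.80 log2 units above the average of the glands) and of the mast cell and eosinophil list (0.27). Its endothelium mean was the highest as well (0.24), and its part was not tested. With the brown adipocyte mean as covariate the difference was 0.04 ± 0.11 (SE), and with the mast cell and eosinophil mean -0.19 ± 0.15. The mast cell and eosinophil mean does not overlap between genotypes, so its part and that of genotype cannot be told apart.

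Among the receptors, Tgfbr1 encodes the type I receptor kinase ALK5. It read 557, 572, 529 and 529 in controls and 548, 579, 553 and 612 in flox/flox glands, a log2 difference of 0.06 ± 0.06 (SE; 95% interval of the fold 0.947 to 1.15; limma adjusted p = 0.781). It was a steady gene, with 8.15% of all genes steadier. Without flox/flox replicate 4 the difference was 0.03.

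Tgfbr2, the type II receptor that binds the ligand first, had the second largest difference. Controls read 969, 1002, 1189 and 909, and flox/flox glands 1346, 1041, 1274 and 1079. Flox/flox replicates 1 and 3 were the highest glands, but control replicate 3 was above flox/flox replicates 2 and 4. The means were 1017 ± 121 and 1185 ± 148 (SD, n = 4). On the log2 scale the difference was 0.22 ± 0.11 (SE; 1.16-fold, 95% interval 0.988 to 1.37; limma adjusted p = 0.521). Without 1 gland it ran from 0.15 (without flox/flox replicate 1, adjusted p = 0.693) to 0.29 (without control replicate 3, adjusted p = 0.486).

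Tgfbr3 encodes betaglycan, a co-receptor that presents TGF-beta2 and also binds inhibin. It read 1136, 1261, 1196 and 1115 in controls and 1278, 1219, 1337 and 1248 in flox/flox glands. Control replicates 1, 3 and 4 lay below every flox/flox gland, and control replicate 2 lay above flox/flox replicates 2 and 4. The log2 difference was 0.11 ± 0.07 (SE; 1.08-fold, 95% interval 0.9751 to 1.19; limma adjusted p = 0.612; exact permutation p = 0.0857).

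Fst encodes follistatin, which binds activins and keeps them from their receptors. It read 236, 304, 292 and 287 in controls and 281, 286, 340.3 and 263 in flox/flox glands. The lowest gland was control replicate 1 and the highest flox/flox replicate 3, and the remaining 6 lay between 263 and 304. The log2 difference was 0.06 ± 0.10 (SE; limma adjusted p = 0.876). It turned to -0.01 without either of those extreme glands. 

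**Figure D2:**
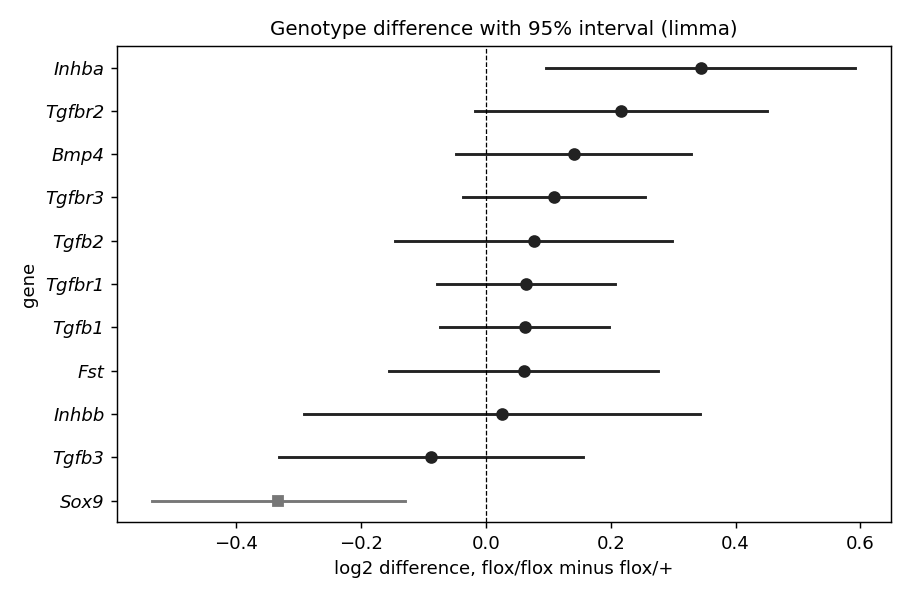
Log2 difference (flox/flox minus flox/+) of each gene with its 95% interval from the limma fit over all genes, n = 4 glands per genotype; the grey square is Sox9. Of the 10 genes only the interval of Inhba, before adjustment over all genes, leaves out 0, and that of Tgfb3 is centred on the lower side.

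The upstream sequence is shown for Inhba and Tgfbr2, which had the largest differences of the 10, and for Tgfb2, whose values moved with those of Tgfbr2 across glands. The sequences come from RefSeq, build GRCm38.p6, and cover the 250 bases before the annotated start, written 5′ to 3′ on the gene's strand: Inhba at chr13:16011601-16011850 (plus strand), Tgfb2 at chr1:186705990-186706239 (minus strand) and Tgfbr2 at chr9:116175364-116175613 (minus strand). Capitals mark the letters ACAAAG, a core bound by SOX factors, on either strand (CTTTGT is its complement read on the gene's strand), the letters TATAAA, and CAGACA, which holds a core bound by SMADs.
Inhba: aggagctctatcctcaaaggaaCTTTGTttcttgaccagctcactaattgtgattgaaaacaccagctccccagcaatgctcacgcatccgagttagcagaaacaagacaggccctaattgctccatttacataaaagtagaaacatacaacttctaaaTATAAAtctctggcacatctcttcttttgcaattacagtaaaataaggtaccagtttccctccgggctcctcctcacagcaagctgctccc
Tgfb2: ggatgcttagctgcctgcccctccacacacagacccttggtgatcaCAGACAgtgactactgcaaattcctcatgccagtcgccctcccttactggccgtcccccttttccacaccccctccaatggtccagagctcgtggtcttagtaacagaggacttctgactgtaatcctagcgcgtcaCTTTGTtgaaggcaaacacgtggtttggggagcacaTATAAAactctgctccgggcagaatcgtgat
Tgfbr2: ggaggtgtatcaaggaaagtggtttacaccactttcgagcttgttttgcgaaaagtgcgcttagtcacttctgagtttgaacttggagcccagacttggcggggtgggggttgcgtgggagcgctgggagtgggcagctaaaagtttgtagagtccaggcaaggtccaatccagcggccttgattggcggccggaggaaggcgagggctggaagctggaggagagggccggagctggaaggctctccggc
The Inhba and Tgfb2 windows each held 1 ACAAAG and 1 TATAAA, the Tgfb2 window also 1 CAGACA, and the Tgfbr2 window none of these. Of the 10 genes 7 matched the table, with 8 windows because Tgfbr1 has 2 annotated starts; Tgfb3, Tgfbr3 and Fst did not match. ACAAAG on either strand was in 4 of the 8 windows (Inhba, Tgfb2 and both of Tgfbr1), and in 16.5% of 32851 windows of this length. ACAATG, another SOX core, was in 0 of the 8 and in 10.7% of all, and TATAAA in 2 of the 8 and in 12.4% of all. CAGACA was in 2 of the 8 (Tgfb2 and 1 window of Tgfbr1) and in 17.1% of all, and the cAMP response element TGACGTCA in 0 of the 8 and in 1.55% of all. The motifs searched did not overlap each other in these windows. A match describes letters only and shows no binding.

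Several of the genes varied together from gland to gland. Over the 45 pairs of the 10 genes, Tgfb1 and Tgfb3 ran opposite to each other (Pearson r = -0.86, Spearman rho = -0.86, n = 8 glands), and they did so with each genotype centred on its own mean (r = -0.90). Tgfb3 and Inhbb ran together (r = 0.77, rho = 0.83; 0.82 when centred), as did Tgfb2 and Tgfbr2 (r = 0.83, rho = 0.93; 0.87 when centred) and Tgfb1 and Tgfbr3 (r = 0.84, rho = 0.90; 0.74 when centred). Fst ran opposite to Tgfb3 (r = -0.82, rho = -0.69; -0.81 when centred). These correlations describe 8 glands that share tissue makeup and array effects, and no p is given.

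Cell-type markers moved with several of the genes across the glands. The pairs named here are a selection from 140 pairs of a list and a gene. Tgfb3 followed the basal epithelium list (r = 0.69, n = 8 glands) and the luminal list (r = 0.66), and Inhbb did so less closely (0.51 and 0.45). Tgfb3 also ran against the B cell list (r = -0.61; -0.77 when centred within genotypes). For Inhbb larger values were negative, with the skin keratinocyte list (r = -0.70) and the macrophage list (-0.59). Control replicate 2, rich in B cell genes, and flox/flox replicate 3 were the low glands for both genes. Their luminal means were -0.166 and -0.01 log2 units from the average of the glands, so flox/flox replicate 3 was near that average. The lowest luminal and basal means were those of another gland, flox/flox replicate 1 (-0.174 and -0.168). Inhba ran against the fibroblast and matrix list (r = -0.74), the proliferating cell list (r = -0.71; -0.16 when centred within genotypes) and the luminal list (r = -0.66; -0.85 when centred). Bmp4 followed the mast cell and eosinophil list (r = 0.81) and the brown adipocyte list (r = 0.70). With the B cell mean as covariate the difference of Tgfb3 was -0.18 ± 0.09 (SE; limma adjusted p = 0.598). That mean was 2.36 in control replicate 2 and -0.52 to -0.12 in the other glands. Leaving out control replicate 2 alone also gave -0.18, so the fit mainly reflects that gland.

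**Figure D3:**
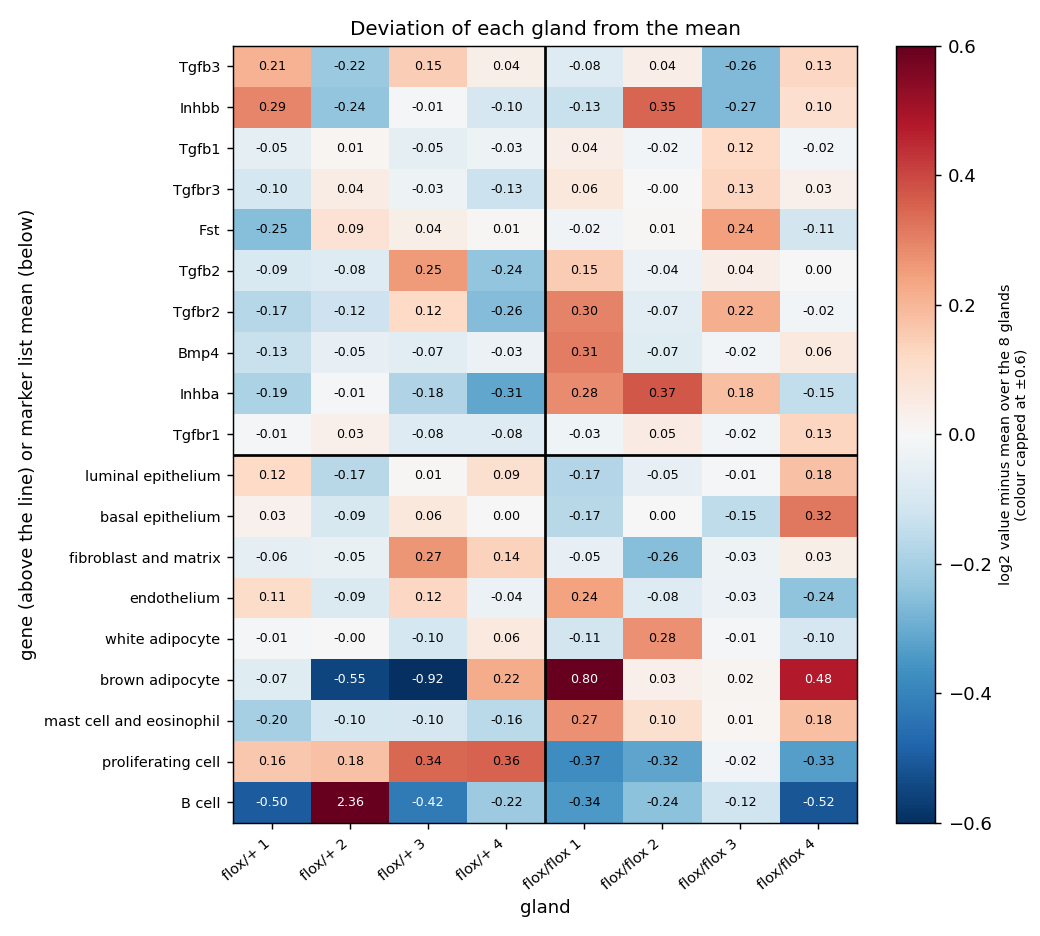
Deviation in log2 units of each gland (columns, flox/+ left and flox/flox right of the line) from the mean of the 8 glands, for the 10 genes and, below the line, for the means of 9 cell-type marker lists; each cell prints its value and colour is capped at 0.6. Tgfb3 and Inhbb share their low glands, and the B cell mean of 2.36 in control replicate 2 is the largest entry.

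For each gene, the gene among all others tested with the highest Pearson r over the 8 glands was sought. Tgfbr2 was most like Jun, a subunit of the AP-1 transcription factor (r = 0.99, rho = 0.98). Jun read 405, 413, 481 and 378 in controls and 528, 430.2, 528 and 427 in flox/flox glands. Tgfbr3 was most like Olfr3 (r = 0.99), Tgfb2 like Frmd5 (0.98), Tgfbr1 like Trmt6 (0.98), Bmp4 like Alox12e (0.97), Fst like Serpinb9b (0.97), Inhbb like Lmbrd2 (0.97), Tgfb1 like Socs7 (0.96), Inhba like Fastkd1 (0.96) and Tgfb3 like Hikeshi (0.95), each with n = 8. Each is the highest of all genes tested, so a high r follows from the search. Between 12 and 42 genes had an r above 0.9 with each of the 10.

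The rest of the pathway was read from 8 lists with 126 genes, of which 120 were measured, the 10 included. None passed limma's adjusted p of 0.05, and 14 (11.7%) had an unadjusted p under 0.05, 4 higher and 10 lower in flox/flox, against 10.3% of all genes. Differences were positive for 64 and negative for 56, with a median of 0.02. Without the 10 genes, 55 of the other 110 were positive and 55 negative, with a median of 0.001. Values did not overlap between genotypes in 4, namely Acvr1c, Tgif2, Chrdl1 and Ltbp1, against 5.90% of all genes.

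Among 14 TGF-beta and activin ligands the median log2 difference was -0.02, with 7 positive and 7 negative. Besides Inhba, Gdf3, a ligand of early embryos, had an unadjusted p under 0.05 (-0.16 ± 0.07 SE, limma adjusted p = 0.484). Nodal, the embryonic patterning ligand, was at -0.15 ± 0.07. Gdf3 lay below the array median of 167 in every gland, and Nodal read between 143 and 181. How far these genes stood above background was not measured. Of 17 BMP and GDF ligands 11 were negative (median -0.03). Bmp7 was at -0.24 ± 0.10 (adjusted p = 0.467), from 276 ± 15.5 in controls to 234 ± 38.0 in flox/flox (SD, n = 4), and Gdf10, a ligand of the BMP3 group, at 0.20 ± 0.10.

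Among 19 receptors and co-receptors the median was -0.00, with 9 positive. Acvr1c, the type I receptor ALK7 found in fat cells, read 998, 1014, 982 and 1149 in controls and 823, 854, 873 and 887 in flox/flox glands. Every flox/flox gland lay below every control. The log2 difference was -0.26 ± 0.07 (SE; limma p = 0.00314, adjusted p = 0.241; exact permutation p = 0.0286). Rgma, a BMP co-receptor of the repulsive guidance family, was at -0.19 ± 0.07. Of the 8 white adipocyte markers 3 were higher and 5 lower in flox/flox, with summed intensities of 34433 to 39754 against 34264 to 39365 in controls. Their part in the Acvr1c value was not tested.

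Of 18 SMADs and their regulators 12 were positive (median 0.05), and 1 had an unadjusted p under 0.05. This was Tgif2, a co-repressor that binds SMADs, at 271 ± 26.2 in controls and 227 ± 3.17 in flox/flox (SD, n = 4; log2 difference -0.23 ± 0.08 SE, limma adjusted p = 0.319). Control replicate 1 at 232 lay just above the highest flox/flox gland at 231. Smad3, which carries the TGF-beta and activin signal, was at -0.17 ± 0.08.

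Of 17 extracellular antagonists 10 were positive (median 0.03). Nbl1, a DAN family BMP antagonist, was at 165 ± 32.4 in controls and 216 ± 33.1 in flox/flox (SD, n = 4; log2 difference 0.36 ± 0.13 SE, limma adjusted p = 0.377). Chrdl1, a chordin-like BMP antagonist, was at -0.32 ± 0.12, with flox/flox glands from 259 to 338 and controls from 343 to 475.

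Of 14 genes for latency and activation of the ligand 9 were positive (median 0.06), and 3 had an unadjusted p under 0.05. Ltbp1, which ties latent TGF-beta to the matrix, read 355, 382, 486 and 483 in controls and 571, 489, 544 and 521 in flox/flox glands. The lowest flox/flox gland, at 489, lay just above the highest control, at 486. Its log2 difference was 0.32 ± 0.11 (SE; limma adjusted p = 0.330; exact permutation p = 0.0286). Thbs1, a matrix protein that can free TGF-beta from its latent form, was at -0.52 ± 0.20 (limma adjusted p = 0.410, exact permutation p = 0.114). Thbs1 values overlapped between genotypes. Itgav, the integrin alpha V chain that binds the latent complex, was at -0.22.

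**Figure D4:**
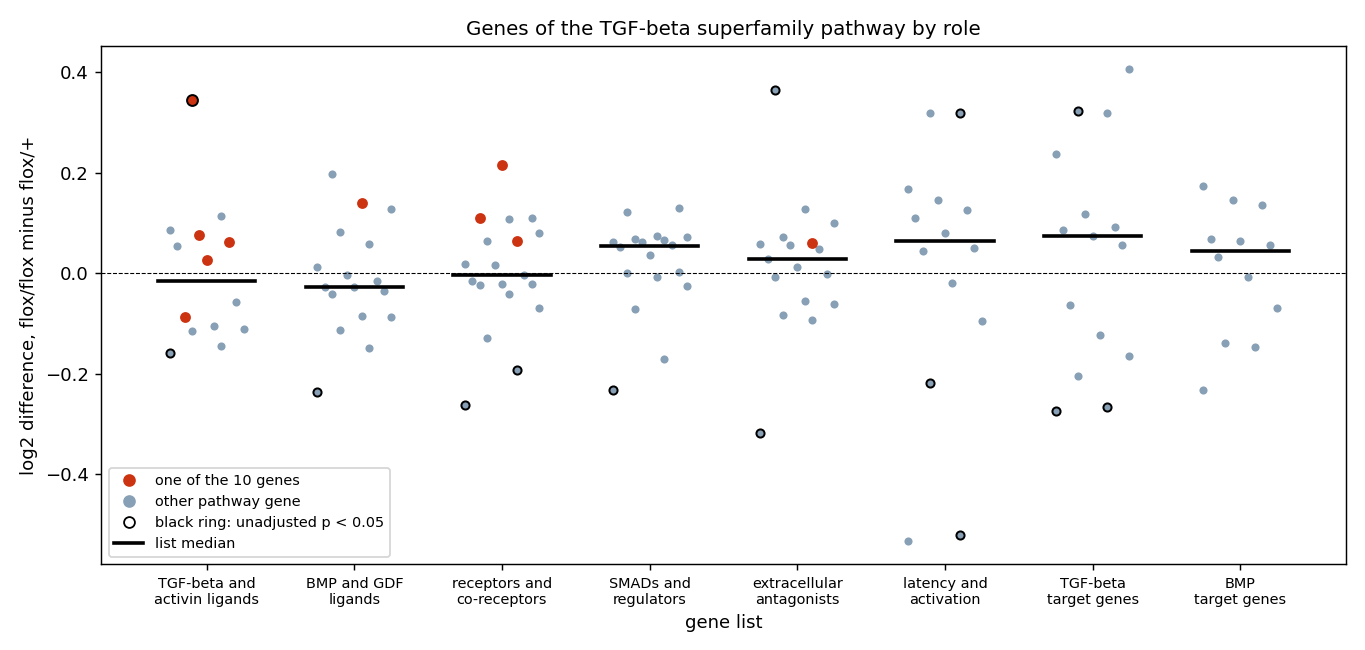
Log2 difference (flox/flox minus flox/+) of each measured gene in the 8 pathway lists, with the 10 genes in red, black rings for an unadjusted limma p under 0.05 and bars for list medians; some genes are in more than 1 list. Medians lie between -0.03 and 0.07, and ringed genes lie on both sides of 0.

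Of 15 TGF-beta target genes 9 were positive (median 0.07). Tgfbi was at 0.32 ± 0.12 (SE; limma adjusted p = 0.407), from 536 ± 80.2 in controls to 675 ± 99.7 in flox/flox (SD, n = 4). The fibrillar collagen genes Col3a1 and Col1a1 were at -0.27 ± 0.09 and -0.27. The fibroblast and matrix list had 6 of 10 markers lower in flox/flox, with summed intensities of 19589 to 22951 against 21128 to 25714 in controls; their part in the collagen values was not tested. Of 12 BMP target genes 0 had an unadjusted p under 0.05 and 7 were positive (median 0.04). The lowest p values were those of Id3, an inhibitor of helix-loop-helix factors (-0.23 ± 0.11, adjusted p = 0.503), and the homeobox gene Dlx5 (0.14 ± 0.07, adjusted p = 0.508).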

How the data were processed

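The authors deposited linear intensity values. The submitters' processing notes name PLIER and Affymetrix Expression Console 1.0, and no source used here gives the background correction or the normalization between arrays. The table holds 35557 probe sets, of which 21789 had 1 gene symbol in the platform annotation, 1621 several and 12147 none. Each gene took its brightest probe set, for 19938 genes.

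An offset of 16 was added before log2 and quantile normalization, which was used because arrays differed by up to 0.245, 0.145 and 0.105 log2 units at percentiles 10, 50 and 90. Printed intensities are the normalized ones. Genotypes were tested over all genes in R 4.3.3 by limma 3.58.1 (lmFit, eBayes), with Benjamini-Hochberg adjustment and a threshold of 0.05. For single genes, a 2-sided exact permutation test ran over the 70 assignments of arrays. Scripts were tested on simulated data.

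The 10 genes, the 8 pathway lists and the 14 marker lists were chosen with earlier results of these data known. Besides the 10 genes and Sox9 the text names, from each pathway list, the 2 other genes with the smallest p where none passed, every gene behind a count of 5 or fewer, and the gene most alike in pattern to each of the 10. Means of marker lists are means of log2 values. Replicate numbers were not used to pair glands: deviations of same-numbered glands from their group means correlated at -0.20, 0.06, 0.21 and -0.09. No 2 arrays were identical. Alternatives were the replicate block, other normalization, offsets, filters, probe set rules, moderation, array weights, each array left out, and, added after the data were seen, marker means as covariates.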

Additional observations from a re-analysis of the deposited data

Results flagged for a closer look

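Bmp7 in the controls had a gland apart from the rest: control replicate 1 read 299, and the next highest control 270. The gap was 0.928 of the range of the 4 controls, above Dixon's 95% critical value for 4 values. It was 1 of 54 groups examined over 27 named genes, and chance alone gives about 1 in 20.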

How the results depend on the processing

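None of the 10 genes, nor any other pathway gene fitted, passed the threshold under any of the 24 alternatives; at an unadjusted limma p under 0.05 there were 0 to 2 of the 10. With the replicate block 0 of the 10 genes and 8 of all genes passed, the Inhba difference was 0.34 with an adjusted p of 0.214, and no call among the pathway genes changed; over all genes 7 were higher and 1 lower, against 6 and 2 without the block. Without the lowest 1 in 3 genes 98 of the 120 pathway genes were fitted, Inhba and Gdf3 not among them. The count of all genes past the threshold was 18 with median centring, 4 with an offset of 1, 19 with an offset of 64, 3 without the lowest 1 in 3 genes, 1 with all probe sets, 17 with trend and robust moderation, 25 at a threshold of 0.1, and 2 to 19 without 1 gland (19 without flox/flox replicate 3, 2 without control or flox/flox replicate 4, 4 without control or flox/flox replicate 1). With a marker mean as covariate it was 1 for brown adipocytes and 0 for proliferating cells and for mast cells and eosinophils (972 and 911 at an unadjusted p under 0.05). The means of these last lists do not overlap between genotypes, so those fits barely separate list from genotype. Inhbb reversed with array weights (-0.00668), with the B cell mean (-0.0494) and the proliferating cell mean (-0.41), and ranged from -0.0856 to 0.129 without 1 gland; Fst ranged from -0.0143 to 0.107. With the proliferating cell mean Bmp4 (-0.00472), Tgfbr1 (-0.0661), Rgma (0.0656), Chrdl1 (0.13) and Col3a1 (0.0422) reversed, and with the mast cell and eosinophil mean Tgfb2 (-0.14), Bmp4 (-0.19), Gdf10 (-0.14), Tgfbi (-0.15) and Id3 (0.0177); the cause was not tested. The signs of the other 5 genes held in every alternative fitted, from 0.23 to 0.45 for Inhba and from 0.03 to 0.38 for Tgfbr2. The array values carry no detection calls, which limits what can be said of dim genes such as Inhba.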

Other observations

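Outside the rule for named genes, and chosen after their values were seen, Ccn2 and Fbn2 had the largest differences of the 120 measured pathway genes in each direction, without an unadjusted limma p under 0.05. Ccn2, a matricellular protein and a known TGF-beta target, read 334, 463, 575 and 450 in controls and 1029, 645, 443 and 431 in flox/flox glands, with a log2 difference of 0.41 ± 0.25 (SE). Fbn2, a microfibril protein of growing tissue, read 279, 307, 365 and 278 in controls and 146, 129, 394 and 236 in flox/flox glands, with a log2 difference of -0.53 ± 0.27 (SE). In both genes 1 or 2 flox/flox glands carried most of the difference: replicate 1 for Ccn2, and replicates 1 and 2 for Fbn2, while flox/flox replicate 3 had the highest Fbn2 value of all 8 glands.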
